A study of Mus musculus with 4 samples.

Results

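Gas2, Rgs3, Clec2h and Limd2 are 4 mouse genes of unrelated function whose liver RNA read lowest, or nearly so, after AAV_Cre injection, and none of them belongs to lipid, bile acid or drug metabolism as usually listed. They were picked by name for that low ratio, so their AAV_Cre to AAV_Null ratios are given here as a description with no test. Every probe on the array that carried 1 of the 4 gene names was taken, which gave 10 of 39429 probes, with 2 for Gas2, 4 for Rgs3, 1 for Clec2h and 3 for Limd2. Of these 10 probes, 7 were tested, 2 were too dim, and 1 had too few spots free of outlier marks. The 4 genes were among 16112 genes tested.

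The livers came from female C57B/6 mice of 8 to 10 weeks that were all homozygous for a floxed Trib1 allele. They were taken 1 week after injection of an adeno-associated virus, either AAV_Cre or the control AAV_Null, after a fast of 4 hours. Total RNA of whole liver was put on 4 Agilent 2-colour arrays of 1 slide, each with RNA of both treatments. Arrays 1 and 2 carried AAV_Cre in the red dye Cy5, and arrays 3 and 4 carried it in the green dye Cy3. Each RNA was hybridised once, and the labels do not say whether it came from 1 animal or several, so the spread between arrays may be partly technical. The labels also do not give the promoter that drives Cre or the floxed part of Trib1.

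The 4 arrays held 43020 spots each outside the controls, of which between 51.0% and 58.7% were well above background per dye, and no spot was saturated. Of the Trib1 probes that passed the filter, the 2 to its RefSeq transcript read 1.29 ± 0.11 and 0.94 ± 0.08 (SE, n = 4 arrays) on the log2 scale. Both were higher in AAV_Cre on 4 of 4 arrays, where the Trib1 knockout label would mean a fall in probes of the deleted part. A probe to an Ensembl transcript of Trib1 read -0.05 ± 0.05. Because a probe outside the deleted part would not check the label, directions below are those of the RNA labelled AAV_Cre. All 15 hepatocyte markers listed were measured.

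GAS2 (growth arrest-specific 2) is an actin-binding protein that is cut by caspases during apoptosis. RGS3 is a regulator of G protein signalling, a family that shortens signals by speeding the hydrolysis of GTP on G protein alpha subunits, and several RGS3 proteins of different length are made from 1 gene. Clec2h belongs to the Clec2 (Clr) group of C-type lectin-like membrane proteins, whose members are ligands of the Klrb1 (NKR-P1) receptors of natural killer cells and lie beside those receptors in the natural killer gene complex. LIMD2 is a small protein built mainly of 1 LIM domain, a zinc-binding module for protein contacts, and it can bind integrin-linked kinase.

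The probe sequences are shown because the ratio of a gene depended on which of its probes was read. Positions are on mm9 as the array gives them, and the array assigns each probe to a spliced transcript. Coding and untranslated parts were not analysed here. The probes of the reported values of Gas2, Rgs3, Clec2h and Limd2 come first, each as a stretch of 30 of its 60 bases. Capitals mark AATAAA, the hexamer of the polyadenylation signal, where it is present.
Gas2 A_55_P2041708, within chr7:59249736-59249795, plus strand: ctgttttgtatcAATAAAcagcaagatatt
Rgs3 A_55_P2027102, within chr4:62363993-62364052, plus strand: agtgctgaggcaAATAAAaggcctgtgata
Clec2h A_52_P320193, within chr6:128626525-128626584, plus strand: gccaagcactatttattgatattgatctta
Limd2 A_52_P78023, within chr11:106019369-106019428, minus strand: ggcagtagctatgctcctccatctgttgtg

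The other probes of Gas2, Rgs3 and Limd2 follow, since each of them read less change or no signal. The Rgs3 and Limd2 probes nearest the 5′ end of the shared transcripts are given whole.
Gas2 A_55_P2041713, within chr7:59221290-59221349, plus strand: ggattagcttggcacttgcttctgtatgct
Rgs3 A_55_P2027107, chr4:62363208-62363267, plus strand: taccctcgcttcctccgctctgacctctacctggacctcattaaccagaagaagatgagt
Rgs3 A_55_P2027117, within chr4:62320777-62320836, plus strand: ggagctggaattatacagaccttctgagaa
Rgs3 A_55_P2027112, within chr4:62358833-62358892, plus strand: ttaggtttcctcaaactttcagtcttgagg
Limd2 A_55_P2182736, chr11:106020027-106020086, minus strand: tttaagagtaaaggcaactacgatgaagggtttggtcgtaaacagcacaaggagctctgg
Limd2 A_51_P176797, within chr11:106017961-106018020, minus strand: tgtaaaaattcccaccaccacctttaaccg

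The hexamer was searched on the probe strand after the probes had been seen. It stood in 2 of the 10 probes, the reported ones of Gas2 and Rgs3, and in 12.6% of all 39429 probes. Of the 10 probes, 9 shared no run of 14 bases with a probe of another gene, and the Limd2 probe A_51_P176797 shared 1 run of that length.

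In the reported processing Gas2, the actin-binding caspase substrate, had the lowest ratio of the 4 genes and the 4th lowest of all 16112. With no background subtraction Clec2h was lower, at -1.64 against -1.57 for Gas2. Clec2h was also lower than Gas2 with local subtraction, with processed signals and with the deposited values. Its probe A_55_P2041708, assigned to NM_008087, read log2 ratios of AAV_Cre over AAV_Null of -1.39, -1.78, -1.62 and -1.40 on arrays 1 to 4. The log2 intensity of this probe was 9.22, 9.27, 9.45 and 9.86 in AAV_Cre and 10.61, 11.05, 11.07 and 11.26 in AAV_Null. Every AAV_Cre channel was below every AAV_Null channel, with 0.75 between the nearest values. Such a complete separation downward was seen in 2.66% of 15736 genes. For the reported probes of all 4 genes it follows from how the genes were chosen. The fitted ratio was -1.55 ± 0.09 (SE, n = 4), which is 0.342 of the AAV_Null level or 2.93 times lower.

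The second Gas2 probe, A_55_P2041713, is assigned to the cDNA AK142903 and lies upstream of the first in the genome. It was not well above background in any of the 8 channels, so it gave no fold. The Gas2 value therefore rests on 1 probe with 1 spot per array. In bulk RNA, fewer cells of a type that makes a transcript and less of the transcript per cell cannot be told apart, and this holds for all 4 genes.

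**Figure D1:**
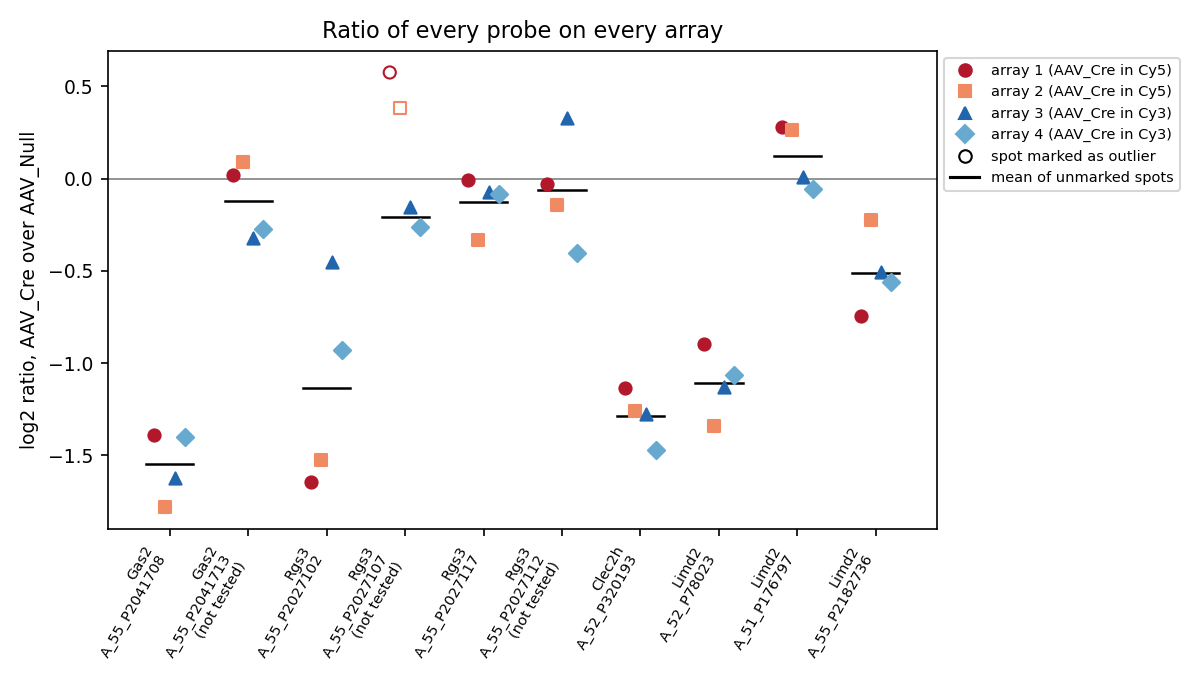
Log2 ratio of AAV_Cre over AAV_Null (vertical axis) for each of the 10 probes (horizontal axis, by gene and probe name) on arrays 1 to 4, with open symbols for spots the scanner software marked as outliers and a black line at the mean of unmarked spots. The reported probes of Gas2, Clec2h and Limd2 lie below -0.89 on every array, the Rgs3 probe A_55_P2027102 runs from -1.64 to -0.45, Rgs3 A_55_P2027117 and Limd2 A_51_P176797 lie between -0.34 and 0.28, and the marked spots of Rgs3 A_55_P2027107 lie at 0.58 and 0.38.

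Rgs3, the regulator of G protein signalling, was lower on 4 of 4 arrays with its probe A_55_P2027102, but by unequal amounts. The log2 ratios were -1.64, -1.52, -0.45 and -0.93 on arrays 1 to 4. The AAV_Cre levels lay close together, at 10.20, 10.02, 9.76 and 9.88 (SD 0.19), while the AAV_Null levels were 11.84, 11.55, 10.21 and 10.81 (SD 0.73). The wide range of the ratio thus came with a wide range of the AAV_Null channel, in which arrays 1 and 2 were high and array 3 was low. The groups did not overlap, but only 0.018 lay between the lowest AAV_Null and the highest AAV_Cre value. The fitted ratio was -1.14 ± 0.09 (SE, n = 4), or 0.455 of the AAV_Null level, and ranked 14th from the lowest. This SE is what remained after the dye term took up the split between the array pairs. Without the dye term the Rgs3 ratio was the same, with an SE of 0.20. The SE of Gas2, Clec2h and Limd2 was then 0.09, 0.08 and 0.09.

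The arrays on which AAV_Cre was in Cy5 averaged -1.58 for this Rgs3 probe and those on which it was in Cy3 averaged -0.69. The dye term of the fit, by which the ratio moved up on one orientation and down on the other, was -0.45 ± 0.09 (SE), with an adjusted p of 0.0840 in limma over all genes. Under 5 of 17 alternatives it passed the threshold, with adjusted p from 0.0348 to 0.0484, and over all 17 the adjusted p ran from 0.0348 to 0.333, including 1 alternative in which another probe stood for the gene and the term was 0.35. The dye terms of Gas2, Clec2h and Limd2 were -0.04, 0.09 and -0.01, with adjusted p of 0.812, 0.419 and 0.943 in limma, where 2.68% of genes had a dye term past the threshold. Dye orientation and the RNA pair are the same split here, so they cannot be told apart.

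The other Rgs3 probes did not read the same fall. A_55_P2027107 targets the same transcript, NM_134257, 785 bases upstream of A_55_P2027102, with the same spacing in the genome and thus no intron between them. Its Cy5 spot was marked as non-uniform on arrays 1 and 2, and on arrays 3 and 4 it read -0.16 and -0.27. With the marked spots kept it read 0.58 and 0.38 on arrays 1 and 2, the arrays on which A_55_P2027102 read lowest. It was not tested, because unmarked spots remained in 1 dye orientation alone. Since it is the brighter of the pair once marked spots are kept, the Rgs3 value then turned to 0.13 ± 0.06.

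A_55_P2027117 targets a different RefSeq transcript, NM_019492, and read -0.01, -0.34, -0.08 and -0.08, with a fitted ratio of -0.13 ± 0.07 (SE, n = 4). AAV_Cre and AAV_Null channels overlapped for it. It was dim, with a mean log2 intensity of 7.70 against 10.53 for A_55_P2027102. A_55_P2027112, assigned to ENSMUST00000142684, was not well above background in any channel. The tested Rgs3 probes were 1.01 apart on the log2 scale, which exceeded the spread in 99.7% of 3504 genes with several tested probes, where the median spread was 0.092. That share is given as a description, because a gene picked for 1 very low probe will tend to have a large spread. The background correction used for the reported values also pulls a dim ratio towards 0, and its part in the spread was not tested. The scanner's own log2 ratios for A_55_P2027117 were 0.28, 0.04, -0.41 and -0.34, array by array. For A_55_P2027102 they were -1.75, -1.67, -0.53 and -0.99.

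Limd2, the LIM domain protein, showed the same kind of disagreement with no outlier spots involved. Its brightest probe, A_52_P78023, read -0.90, -1.34, -1.13 and -1.06 on arrays 1 to 4. The levels were 11.09, 10.88, 10.84 and 11.05 in AAV_Cre and 11.99, 12.23, 11.97 and 12.11 in AAV_Null, so each treatment was tight and 0.87 separated them. The fitted ratio was -1.11 ± 0.09 (SE, n = 4), or 0.464 of the AAV_Null level, 16th from the lowest.

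All 3 Limd2 probes are assigned to NM_172397, with starts at base 433, 1091 and 2499 of the transcript. The spacing of 658 and 1408 bases was equal in transcript and genome, so no intron lies between them. The probe nearest the 5′ end, A_55_P2182736, read -0.75, -0.23, -0.51 and -0.56, with a fitted ratio of -0.51 ± 0.10, or 0.702 of AAV_Null. It was dim, with a mean log2 intensity of 7.34, and 0.037 separated its groups. The probe nearest the 3′ end, A_51_P176797, read 0.28, 0.26, 0.01 and -0.05, with a fitted ratio of 0.12 ± 0.05 and overlapping groups. Its mean log2 intensity was 8.03, against 11.52 for A_52_P78023. In the reported processing the middle probe thus read low on every array, and the 5′ probe less low on each of them. The 3′ probe lay near 0 or above it there. The 3 probes spanned 1.23, more than in 99.9% of genes with several tested probes, and their mean was -0.50. That share is a description too, because Limd2 was picked for 1 very low probe and more probes tend to span more. The background correction used pulls dim ratios towards 0, and its part in this span was not tested. The scanner's own log2 ratios for the 5′ probe were -0.65, -1.03, -0.98 and -1.07, array by array. They were -0.89, -1.36, -1.20 and -1.11 for the middle probe and 0.22, 0.33, -0.39 and -0.05 for the 3′ probe.

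**Figure D2:**
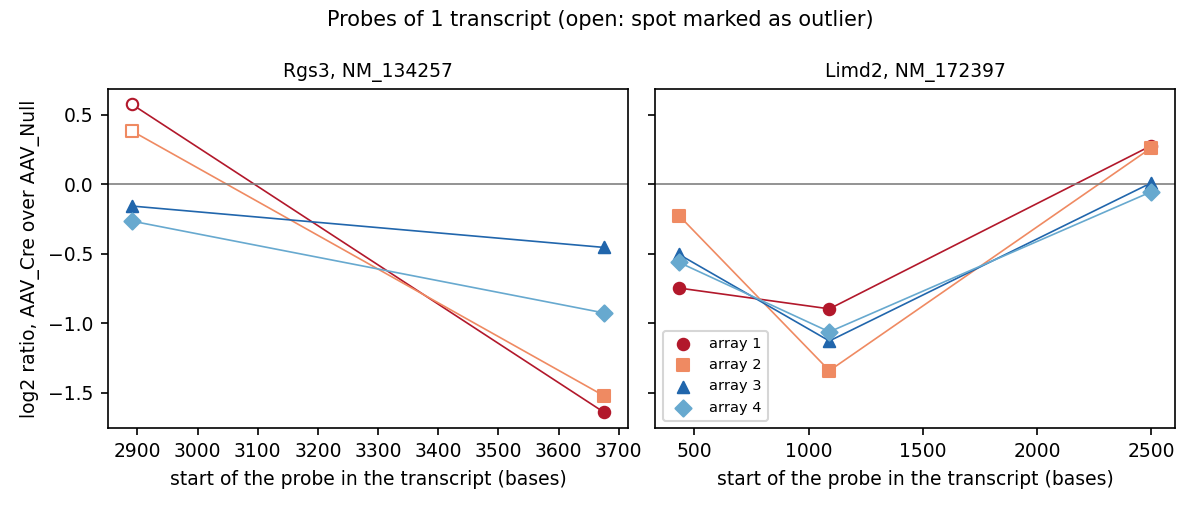
Log2 ratio of AAV_Cre over AAV_Null (vertical axis) against the start of the probe in the transcript in bases (horizontal axis), for the probes of Rgs3 NM_134257 (left) and Limd2 NM_172397 (right), with 1 line per array and open symbols for marked spots. The Rgs3 probe at base 3676 lies below the one at base 2891 on every array, and in Limd2 the probe at base 1091 lies below both others on every array.

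Clec2h, the C-type lectin-like gene of the natural killer complex, had the most even ratio of the 4 genes over the arrays, with an SD of 0.14 against 0.18 to 0.55 for the others. Its 1 probe, A_52_P320193 of NM_053165, read -1.13, -1.26, -1.27 and -1.47. The levels were 7.20, 7.14, 7.06 and 7.12 in AAV_Cre and 8.34, 8.40, 8.34 and 8.59 in AAV_Null. All AAV_Null channels stood at least 1.13 above all AAV_Cre channels, the widest gap of the 4 genes. The separation itself, seen in 2.66% of 15736 genes, again follows from how the gene was chosen. The fitted ratio was -1.29 ± 0.06 (SE, n = 4), or 0.410 of the AAV_Null level, and ranked 8th from the lowest in the reported processing.

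The Clec2h probe was dim, with a mean log2 intensity of 7.77, and the size of its ratio depended on the background correction. The probe was well above background in all 8 channels, but in Cy3 on array 3 its AAV_Cre spot measured 62.5 over a local background of 30. The AAV_Null spot on that array measured 375 in Cy5. The fitted log2 ratio was -1.64 with no background subtraction, -2.12 with the local background subtracted and -2.49 from the scanner's processed signals. From the authors' deposited table of log2 values it was -1.70. The offset of 50 used for the reported value pulls a dim ratio towards 0. The scanner's own log ratio for Clec2h, put on the log2 scale, was between -2.60 and -2.32 on the 4 arrays. Gas2, Rgs3 and Limd2 moved far less between these corrections, with Gas2 from -1.55 to -1.68, Rgs3 from -1.14 to -1.23 and Limd2 from -1.11 to -1.15.

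**Figure D3:**
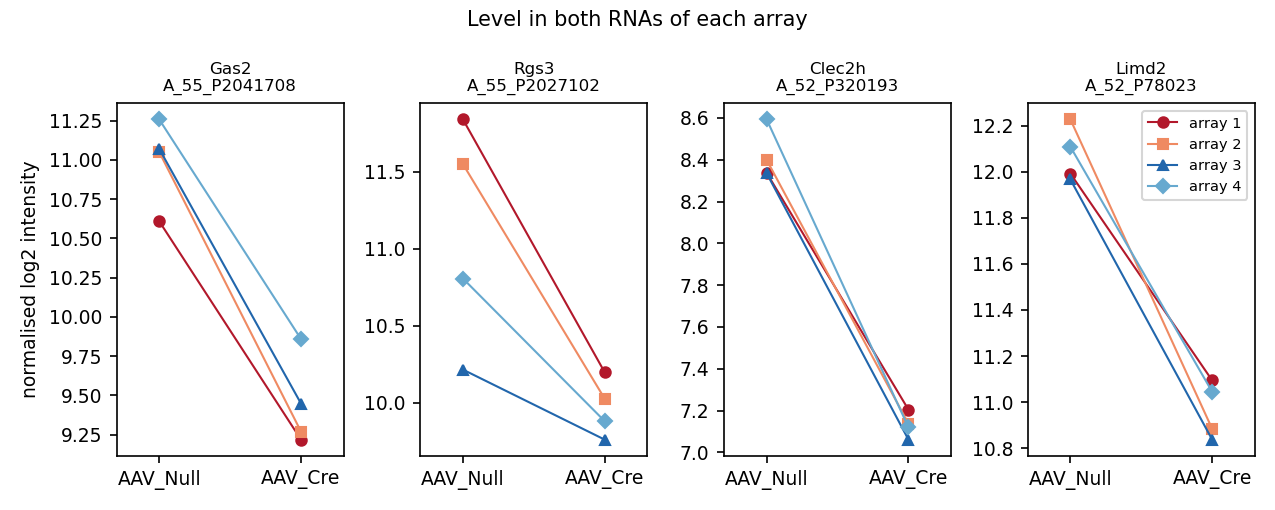
Normalised log2 intensity (vertical axis, own range per gene) in AAV_Null and AAV_Cre RNA for the reported probe of each gene, with 1 line per array. Every line falls, and the AAV_Null points of Rgs3 spread from 10.21 to 11.84 while those of Clec2h spread from 8.34 to 8.59. The slopes are most alike over the arrays for Clec2h and least alike for Rgs3.

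**Figure D4:**
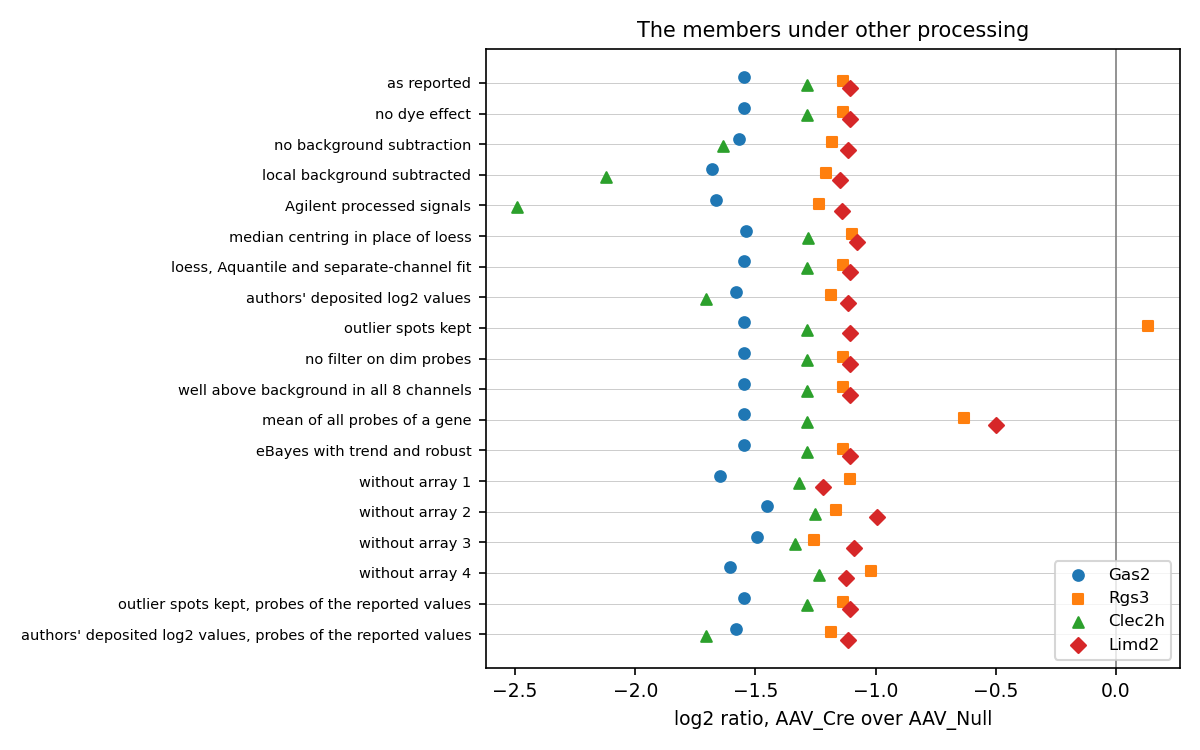
Fitted log2 ratio of AAV_Cre over AAV_Null (horizontal axis) for the 4 genes under the reported processing and each alternative (vertical axis). Gas2 stays between -1.68 and -1.45, Clec2h moves to -2.49 with other background corrections, and Rgs3 and Limd2 move towards 0 when another probe or the mean of probes stands for the gene.

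The relatives of the 4 genes were read from lists of named families and partners, which held 94 tested genes. In limma over all genes, 287 genes passed an adjusted p of 0.05 as higher in AAV_Cre (1.78%) and 158 as lower (0.981%), 2.76% in either direction, and among the 94 relatives 2 passed as higher and 1 as lower. With median centring in place of loess, the counts over all genes were 527 higher and 228 lower. An unadjusted p under 0.05 was seen for 17 of the 94 relatives (18.1%), against 22.6% of all genes. The separate-channel fit in limma called 4 relatives higher and 4 lower, where it called 1290 and 1237 of all genes.

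None of the 15 tested relatives of Gas2 passed in limma, among them the GAS2-domain genes, calpains and caspases, and their median log2 ratio was 0.03 against -0.0025 for all genes. Of these, 4 had an unadjusted p under 0.05, and the separate-channel fit called 2 higher and 1 lower. Gas1, a membrane protein of growth-arrested cells, came nearest, at -0.47, -0.75, -0.88 and -0.35 (fitted -0.61 ± 0.11, adjusted p = 0.0698 in limma). It passed under 5 alternatives, with adjusted p from 0.0023 to 0.0261, and as the mean of its probes it read -0.30 (adjusted p = 0.185). Over all 18 alternatives its adjusted p ran from 0.0023 to 0.308. Capn2, which encodes a calpain, read -0.01 ± 0.07 and Gas2l3, a gene with the same domain, read 0.12 ± 0.10.

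None of 13 other RGS genes passed in limma, with 2 at an unadjusted p under 0.05, 1 called lower by the separate-channel fit, and a median of -0.05. Rgs12 came nearest, with log2 ratios of -0.40, -0.65, -0.22 and -0.38 (fitted -0.41 ± 0.07, adjusted p = 0.0601 in limma). Its call depended on the processing, since under 6 alternatives it passed. Over all 18 alternatives its adjusted p in limma ran from 0.0025 to 0.281. Rgs16 read 0.34 ± 0.13 and Rgs5, which pericytes express, read -0.05 ± 0.07. Of the G protein subunits on which RGS proteins act, 0 of 23 passed in limma, with 2 at an unadjusted p under 0.05 and 1 called lower by the separate-channel fit. Gnai2 read 0.04 ± 0.05 and Gnaq 0.0021 ± 0.06.

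Of the Clec2 and Klrb1 genes, 4 of the 11 on the array passed the filter. Clec2e rose in AAV_Cre while Clec2h read lower, with log2 ratios of 0.78, 0.89, 0.63 and 0.42 (fitted 0.68 ± 0.06, adjusted p = 0.0217 in limma). The call was lost with the local background subtracted (adjusted p = 0.0921) and without any 1 array (adjusted p from 0.0724 to 0.174). Clec2d, whose protein is a ligand of Klrb1b, read 0.46 ± 0.22, Clec2i read 0.14 ± 0.11 and the receptor gene Klrb1a read 0.03 ± 0.07, and none of these passed. The summed intensity of Clec2e, Clec2d, Clec2i and Klrb1a, without Clec2h, was 1568 to 2356 in AAV_Cre and 1197 to 1528 in AAV_Null. Clec2e and Clec2d were the brightest of them, with mean log2 intensities of 9.51 and 9.15 against 7.17 for Clec2i and 7.16 for Klrb1a. The ranges of the sum did not overlap, but the share of all genes with such a separation upward is not given, so nothing is drawn from it. Klrb1b, Klrb1c and Klrb1f did not pass the filter and were not tested.

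Of 39 LIM domain and integrin-linked kinase complex genes tested, 1 rose and 1 fell, with a median of -0.03. Lmo4, a LIM-only transcription cofactor, rose with log2 ratios of 1.31, 1.24, 1.09 and 1.40 (fitted 1.26 ± 0.07, adjusted p = 0.0122 in limma). As the mean of its probes Lmo4 read 0.91 (adjusted p = 0.0174 in limma). Lima1, an actin-binding LIM protein, fell with -0.59, -0.63, -0.48 and -0.56 (fitted -0.56 ± 0.05, adjusted p = 0.0217 in limma). Both calls were lost with the local background subtracted, at adjusted p of 0.0793 and 0.0821. The Lmo4 call was lost on leaving out array 1, 2 or 4 (adjusted p from 0.0631 to 0.122) and the Lima1 call on leaving out any 1 array (adjusted p from 0.0744 to 0.174). Ilk itself, the kinase that LIMD2 can bind, read 0.03 ± 0.05, and Limd1 read -0.02 ± 0.05.

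The genes beside the 4 on the chromosome were taken from the RefSeq order, 3 protein-coding genes on each side. Of these 24 neighbours 15 were tested, and none passed in limma, where 2.76% of all genes did, so 15 genes are too few to show a difference. An unadjusted p under 0.05 was seen for 5 of the 15, against 22.6% of all genes. The separate-channel fit called 3 of the 15, where it called 1290 of 15812 genes higher and 1237 lower. The median log2 ratio of the 15 neighbours was -0.05, from -0.53 for Ambp near Rgs3 to 0.17 for A2ml1 near Clec2h. The genes next to Limd2, Map3k3 and Strada among them, read 0.02 and -0.09.

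RefSeq lists 8 promoter windows of 250 bases before to 50 after a start for the 4 genes on GRCm38.p6, with 2 for Gas2, 2 for Rgs3, 1 for Clec2h and 3 for Limd2. They were searched on both strands for TTGCNNAA, a core of the C/EBP motif, because Trib1 is known to lower C/EBP alpha protein and Cebpa itself read -0.59 ± 0.06. The motif stood in 1 of the 8 windows and in 10.8% of 32851 promoters. It lay 213 bases before the first Rgs3 start, in capitals in the 250 bases upstream of that start.
Rgs3 promoter, GRCm38.p6 chr4:62559597-62559846, plus strand: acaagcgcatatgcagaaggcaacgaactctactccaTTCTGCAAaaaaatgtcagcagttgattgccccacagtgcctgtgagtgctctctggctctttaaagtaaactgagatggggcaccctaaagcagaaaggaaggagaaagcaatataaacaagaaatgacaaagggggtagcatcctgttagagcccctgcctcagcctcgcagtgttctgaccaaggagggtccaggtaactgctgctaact
The Clec2h window had a GC content of 38.0% and 0 CpG, against medians of 52.7% and 7 over all promoters.

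The genes with the most similar ratios over the 4 arrays were found by the root mean square difference among 12165 candidates, as a description over 4 arrays. All distances are from the reported processing. They were not computed under the other background corrections, with which the Clec2h ratio moved. For Gas2 they were Cyp2c23 (0.308), Clec2h (0.340) and Cyp2d40 (0.417), and for Clec2h they were Cyp2d40 (0.135), Cyp2c23 (0.147) and Nat8f1 (0.239). Cyp2c23 and Cyp2d40 are cytochrome P450 genes. For Limd2 the nearest was Nat8f1 (0.0745), an acetyltransferase gene at -0.91, -1.34, -1.01 and -1.15, then Arhgap6 (0.126) and Cebpe (0.170). For Rgs3 the nearest was Bmf (0.318), a pro-apoptotic BCL2 relative at -1.09, -1.23, -0.34 and -0.88, which was also least low on array 3, then Serpina11 (0.354) and Rnu3b1 (0.394). Rgs3 and Gas2 had no gene as close as Limd2 or Clec2h had.

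Markers of the cell types that whole liver can hold were read beside these ratios. The summed marker intensity of AAV_Cre and AAV_Null channels overlapped for each of 8 lists. These sums leave out the pairing within arrays and weigh bright genes most, so their overlap says little of cell makeup. In the neutrophil list Csf3r stood at a mean log2 intensity of 14.81, with S100a9 next at 11.33. In the B cell list Cd22 stood at 11.61, with Cd79a next at 9.43. Within arrays, the stellate and mesenchymal list had a positive median log2 ratio on 4 of 4 (0.31, 0.37, 0.15 and 0.29). So had the cholangiocyte list, with 4 tested genes (0.08, 0.16, 0.22 and 0.01). For T and natural killer cells, whose receptors bind Clec2 proteins, the sum was 40463 to 64265 in AAV_Cre and 50181 to 65430 in AAV_Null. It was carried by Cd4, at a mean log2 intensity of 15.66, while the next brightest gene, Nkg7, stood at 9.71. The overlap of this sum therefore describes Cd4 and says little of the other genes in the list. In limma, 0 of 9 tested T and natural killer genes passed, with 0 at an unadjusted p under 0.05 and 0 called by the separate-channel fit. Among the defining genes of that list Cd3g, Cd8a and Ncr1 did not pass the filter. For endothelial cells the sum was 38000 to 41143 against 39695 to 53654, and 0 of 15 passed in limma, with 8 at an unadjusted p under 0.05 and 5 called lower and 1 higher by the separate-channel fit. For stellate and mesenchymal cells it was 74004 to 93444 against 58564 to 82551, and 1 of 14, Col3a1, passed as higher in limma at 0.47 ± 0.06, with 7 at an unadjusted p under 0.05 and 5 called higher and 0 lower by the separate-channel fit. For hepatocytes it was 1523900 to 2636340 against 2124420 to 2672140, and 1 of 15, Trf, passed as lower at -0.52 ± 0.07 in limma, with ratios of 0.27, 0.33, -1.18 and -1.51 on arrays 1 to 4. Of the hepatocyte markers, 8 had an unadjusted p under 0.05 and the separate-channel fit called 5 lower. Their median log2 ratio was 0.20, 0.19, -0.16 and -0.48 on arrays 1 to 4, and 9 of 15 had one sign on arrays 1 and 2 and the other on arrays 3 and 4, against 26.9% of 15736 genes. No B cell, cholangiocyte, macrophage or neutrophil marker passed in limma, of 6, 4, 13 and 6 tested, where 1, 1, 3 and 1 had an unadjusted p under 0.05, and the separate-channel fit called 1 macrophage gene higher, 2 lower and none of the other 3 lists. The part of cell makeup in the 4 ratios was not tested.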

How the data were processed

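Spot and local background intensity of both dyes were read with Agilent Feature Extraction 11.5.1.1, and its processed intensity and log10 ratio of Cy5 over Cy3 were dye-normalised within the array, per the file headers. The authors' deposited table holds log2 values. Its slopes against the scanner log10 ratio were 3.34, 3.34, -3.29 and -3.41 on arrays 1 to 4, so it is AAV_Cre over AAV_Null on the log2 scale, with its medians between -0.038 and 0.041. The submitters' processing notes name limma, with steps not given in the sources used here. The table was used for an alternative alone, and 2 of its 43173 entries had no scanner spot.

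In R 4.3.3 with limma 3.58.1, mean intensities went through normexp (offset 50) and within-array loess, in which control spots had weight 0. Outlier-marked spots were dropped unless a probe would lose all of them (144 probes). A probe was tested if 3 or more of the 4 channels of 1 treatment were well above background and it had unmarked spots on at least 3 arrays with both orientations. This left 20373 probes, and the brightest stood for a gene. The model of the log2 ratio held a dye and a treatment term, with at most 2 residual and 2.67 prior degrees of freedom, and the Benjamini-Hochberg adjustment ran over 16112 genes at 0.05. Of these, 3636 had an unadjusted p under 0.05, and the median SE was 0.063. The 4 arrays limit the precision. A difference between RNA pairs that follows the dye orientation is taken up by the dye term. The fit was tested on simulated data.

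The 4 genes and all gene lists were chosen with earlier results of these data known. The other genes named were, per list, those called (up to 4) or otherwise the 1 of smallest p, and those added to describe a list were chosen after their values were seen. Symbols came from RefSeq (GRCm38.p6), through the accession for 27508 probes and a synonym for 404. Alternatives changed the dye term, background, normalisation, filter, outlier spots, probes per gene, empirical Bayes settings, threshold and arrays, or used the deposited values or a separate-channel fit (statmod 1.5.0), and 2 of them were added after seeing the data. Figures were drawn with matplotlib. For 1 tested list gene the value was left out on purpose and is not reported here.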

Additional observations from a re-analysis of the deposited data

Results flagged for a closer look

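Mpeg1, a macrophage marker, read 1.27 on array 3 and 0.44 to 0.54 on the other arrays, so 1 array stood far from the rest. Among 23 results looked at, about 1.15 such cases come by chance. Of 80 marker genes measured on all arrays, 23 (28.7%) had one sign on arrays 1 and 2 and the other on arrays 3 and 4, against 26.9% of all genes, and 9 of the 23 were hepatocyte genes. The dye term passed for 6 of the 23, of which 5 were hepatocyte genes. Among them the dye terms of the hepatocyte genes Serpina1a and Alb were 0.92 (adjusted p = 0.0253) and 0.72 (adjusted p = 0.0316) in limma. Of the marker genes named by smallest p, 3 were among the 23, with dye terms of 0.31 for Cd79a (B cells, adjusted p = 0.0624), 0.82 for Trf (hepatocytes, adjusted p = 0.0273) and -0.37 for Cd3d (T cells, adjusted p = 0.0955), all in limma over all genes.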

How the results depend on the processing

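Gas2 kept its direction and stayed within the spread of its arrays under all 18 alternatives. Rgs3 did so under 17 and reversed to 0.13 with outlier spots kept, where the brighter probe A_55_P2027107 stands for the gene. Held to A_55_P2027102 (an alternative chosen after seeing the data), it stayed at -1.14. Clec2h moved to -1.64 with no background subtraction, -2.12 with local subtraction, -2.49 with processed signals and -1.70 with the deposited values, with the reported probes held or not. Limd2 moved to -0.50 as the mean of its probes, and Rgs3 read -0.63 that way. Leaving out each array gave -1.65 to -1.45 for Gas2, -1.26 to -1.02 for Rgs3, -1.34 to -1.24 for Clec2h and -1.22 to -0.996 for Limd2.

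Counts of genes called by limma moved most. The counts higher and lower were 183 and 87 with no dye term, 822 and 577 with no background subtraction, 461 and 270 with processed signals, 1290 and 1237 with the separate-channel fit, and 823 and 550 with the deposited values, probes held or not. With local subtraction they were 0 and 0 (3138 at an unadjusted p under 0.05). Median centring gave 527 higher, and no filter gave 97 lower. An adjusted p of 0.01 gave 9 and 3, and 0.1 gave 753 and 545. Leaving out each array gave 0 to 22 higher and 0 to 15 lower. Without array 1 the counts were 12 and 1, without array 3 they were 22 and 15, and without array 2 or 4 they were 0 and 0, with 2112 and 3334 at an unadjusted p under 0.05. Fewer arrays leave fewer residual degrees of freedom.

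Among the relatives, where 2 were called higher and 1 lower, local subtraction gave 0 and 0 (14 at an unadjusted p under 0.05) and the separate-channel fit 4 and 4. The count lower was 4 with no background subtraction and with the deposited values (probes held or not), 2 with processed signals and with median centring, and 3 when all 8 channels had to be well above background. Leaving out each array gave 0 to 1 higher and 0 to 0 lower. Apart from the changes that follow from the alternatives' own construction, the cause was not tested. Clec2h was dim, and its value moved with the background correction. Each array pairs both treatments, so the reported fit is paired within arrays.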
